A study of Mus musculus with 6 samples.

Results

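Undifferentiated spermatogonia, the testis cells that include the spermatogonial stem cells, express a set of regulators and markers of that state, and 9 of those genes are described here. They are Zbtb16, Taf4b, Nanos2, Nanos3, Utf1, Eomes, Pax7, Shisa6 and Cdx2, and each was found in the count table by its gene symbol. The table held 32285 genes, and every one of the 9 symbols matched 1 row. Expression was measured by RNA-seq in germline stem (GS) cells, which are spermatogonia that multiply in culture with GDNF and FGF2 on a layer of embryonic fibroblast feeder cells. The cells came from the testes of mice aged 2 to 3 days, of the line C57BL6/Tg14(act-EGFP-OsbY01) crossed into DBA/2, which carries an EGFP transgene, and this origin was common to all libraries. In 3 libraries, titled Space, the cells had been kept frozen for 6 months on the International Space Station, and in the other 3, titled Ground, they had been kept frozen on Earth for the same time. RNA was taken the day after thawing, before any passage, so all values describe freshly thawed cells of established lines with some feeder cells among them. The treatment field of every library says the opposite of its title. The directions below follow the titles and the column names of the table, and would change sign under the treatment field.

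ZBTB16 (also called PLZF) and UTF1 act on transcription and chromatin, and TAF4B is a germ cell form of a TFIID subunit. NANOS2 and NANOS3 bind RNA and recruit the CCR4-NOT deadenylase, which removes poly(A) tails, and NANOS2 keeps stem cells from differentiating downstream of GDNF. EOMES, PAX7 and SHISA6 mark small subsets of undifferentiated spermatogonia in the mouse testis, where EOMES lies within the GFRA1-positive cells. Zbtb16, Taf4b and Nanos2 are each needed for spermatogenesis to persist in mice.

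The libraries held between 19015985 and 24110916 counts, of which 2.51% to 11.5% were mitochondrial. The germ cell markers summed to 3072 to 3207 CPM (counts scaled to a common library size) in Ground and to 3118 to 3179 CPM in Space, and all 8 markers passed the low-count filter, 4 with a log2 fold change above 0 and 4 below. The 18 fibroblast markers summed to 1099, 1114 and 1101 CPM in Ground-1, Ground-2 and Ground-3, and to 877, 1125 and 994 CPM in Space-1, Space-2 and Space-3. Fn1 (376 to 465 CPM) and Col5a1 (231 to 307 CPM) made up most of that sum, which thus says little about the less abundant markers. Each library was most similar to a library of the other group. Space-1 was closest to Ground-3 (Pearson's r across genes 0.994), Space-2 was closest to Ground-2 (0.994), and Space-3 was closest to Ground-1 (0.996), while Space-3 and Ground-3 were the least similar (0.984). In a bulk library, fewer cells of a type and less RNA per cell cannot be told apart.

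The 9 genes spanned a wide range of levels, and none passed the test between Space and Ground. Levels of different genes were compared as CPM per kb of exon. In that unit Zbtb16 was highest, at 64.9 ± 4.61 (SD, n = 6), followed by Nanos3 at 43.1 ± 3.41 and Taf4b at 25.6 ± 1.12. Utf1 was at 8.37 ± 1.34 and Nanos2 at 4.85 ± 2.11. Pax7, Eomes, Shisa6 and Cdx2 lay far below, at 0.596 ± 0.101, 0.440 ± 0.175, 0.165 ± 0.050 and 0.107 ± 0.0572. Neighbours in this order overlapped over the 6 libraries for Utf1 and Nanos2, for Pax7 and Eomes, and for Shisa6 and Cdx2, so their order was not resolved. Of the genes past the filter, 96.0% had a lower level per kb than Zbtb16, 92.2% a lower level than Nanos3 and 84.9% a lower level than Taf4b. The share was 48.2% for Nanos2, 13.0% for Eomes and 3.99% for Shisa6.

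**Figure D1:**
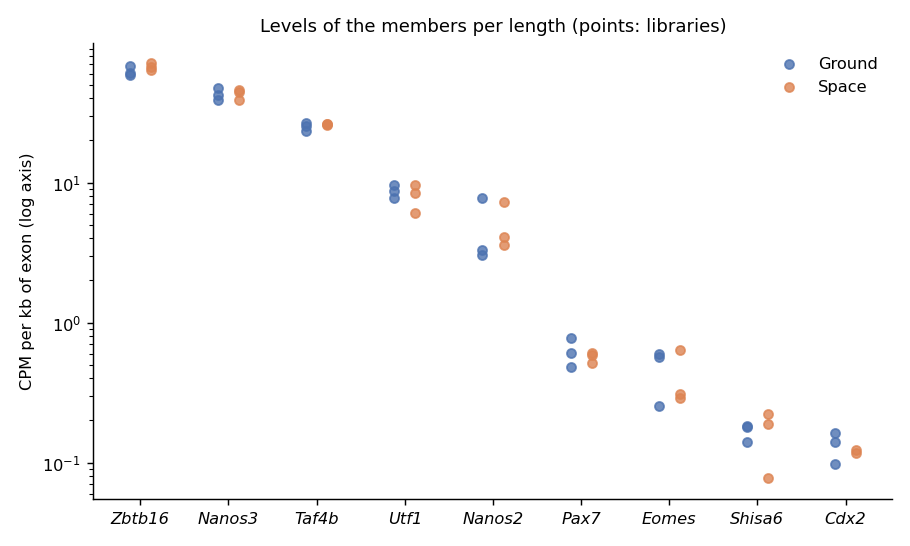
Level of each of the 9 genes in CPM per kb of exon, on a log axis, with 1 point per library, coloured by group. Zbtb16, Nanos3 and Taf4b stand apart at the top, and Shisa6 and Cdx2 overlap at the bottom. Cdx2 had 0 counts in Space-1, which is not drawn.

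NANOS2 and NANOS3 share a CCHC zinc finger region that binds RNA, and the genes were measured at different levels. In the GRCm38 (mm10) assembly with the GENCODE M21 annotation, Nanos2 (ENSMUSG00000051965) is a gene of 1 exon at chr7:18987400-18988962 on the plus strand. Nanos3 (ENSMUSG00000056155) lies at chr8:84173731-84185217 on the minus strand. The longest block without gaps in an alignment of both coding sequences, which overlaps the zinc finger region, is shown. Reads of these paralogs could be confused only where the sequences match. The block covers coding bases 187 to 348 of 411 in Nanos2 and 175 to 336 of 537 in Nanos3, aligned without gaps and written 5′ to 3′, with capitals for bases identical in both.
Nanos2: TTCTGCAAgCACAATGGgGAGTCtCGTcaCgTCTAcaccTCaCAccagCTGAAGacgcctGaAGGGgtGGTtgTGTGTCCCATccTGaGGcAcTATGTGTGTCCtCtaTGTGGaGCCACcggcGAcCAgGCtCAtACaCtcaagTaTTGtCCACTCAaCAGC
Nanos3: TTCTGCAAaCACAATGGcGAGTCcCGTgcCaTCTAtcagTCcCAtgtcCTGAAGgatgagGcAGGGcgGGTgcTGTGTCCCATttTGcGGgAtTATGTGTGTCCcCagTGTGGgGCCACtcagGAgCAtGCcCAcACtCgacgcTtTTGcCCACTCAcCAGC
Of the 162 aligned bases 110 were identical (67.9%), and the longest identical run was 11 bases. Neither gene shared any stretch of 75 bases with the exons of the other. Nanos2 shared 766 of its 1563 exon bases with the antisense gene Gm45058, which received 12 counts in all 6 libraries. Whether the counting used strand is not given in the sources used here, and without strand the reads of such an overlap cannot be told apart. The level of Nanos2 may therefore be understated. Ratios of Nanos2 to another gene may then be too low, and ratios of another gene to Nanos2 too high.

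Nanos2 varied more between libraries of a group than between the groups. It was at 4.78, 5.16 and 12.1 CPM in Ground-1, Ground-2 and Ground-3, from 116, 97 and 277 counts. It was at 11.4, 6.39 and 5.60 CPM in Space-1, Space-2 and Space-3, from 276, 120 and 140 counts. Ground-3 and Space-1 were high, 1 library from each group, and the other 4 lay between 4.78 and 6.39 CPM. The means were 7.36 ± 4.15 CPM in Ground and 7.79 ± 3.13 CPM in Space (SD, n = 3 each). The log2 fold change, Space relative to Ground, was 0.081 with a standard error (SE) of 0.41 (edgeR quasi-likelihood test, adjusted p = 0.9999). Its 95% interval ran from 0.543-fold to 2.06-fold.

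Nanos3, which is also needed for the survival of primordial germ cells, was steady. It was at 39.3, 36.0 and 43.4 CPM in Ground and at 41.3, 36.2 and 42.4 CPM in Space, and the groups overlapped throughout. The means were 39.6 ± 3.71 and 40.0 ± 3.32 CPM, and the log2 fold change was 0.013 (SE 0.099, 95% interval 0.861-fold to 1.18-fold, edgeR adjusted p = 0.9999). The ratio of their counts differed between libraries. There were 8.23, 6.98 and 3.58 Nanos3 counts per Nanos2 count in Ground and 3.63, 5.66 and 7.58 in Space. Nanos1, the paralog that is best known from other tissues, lay between 32.4 and 37.3 CPM in the 6 libraries.

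**Figure D2:**
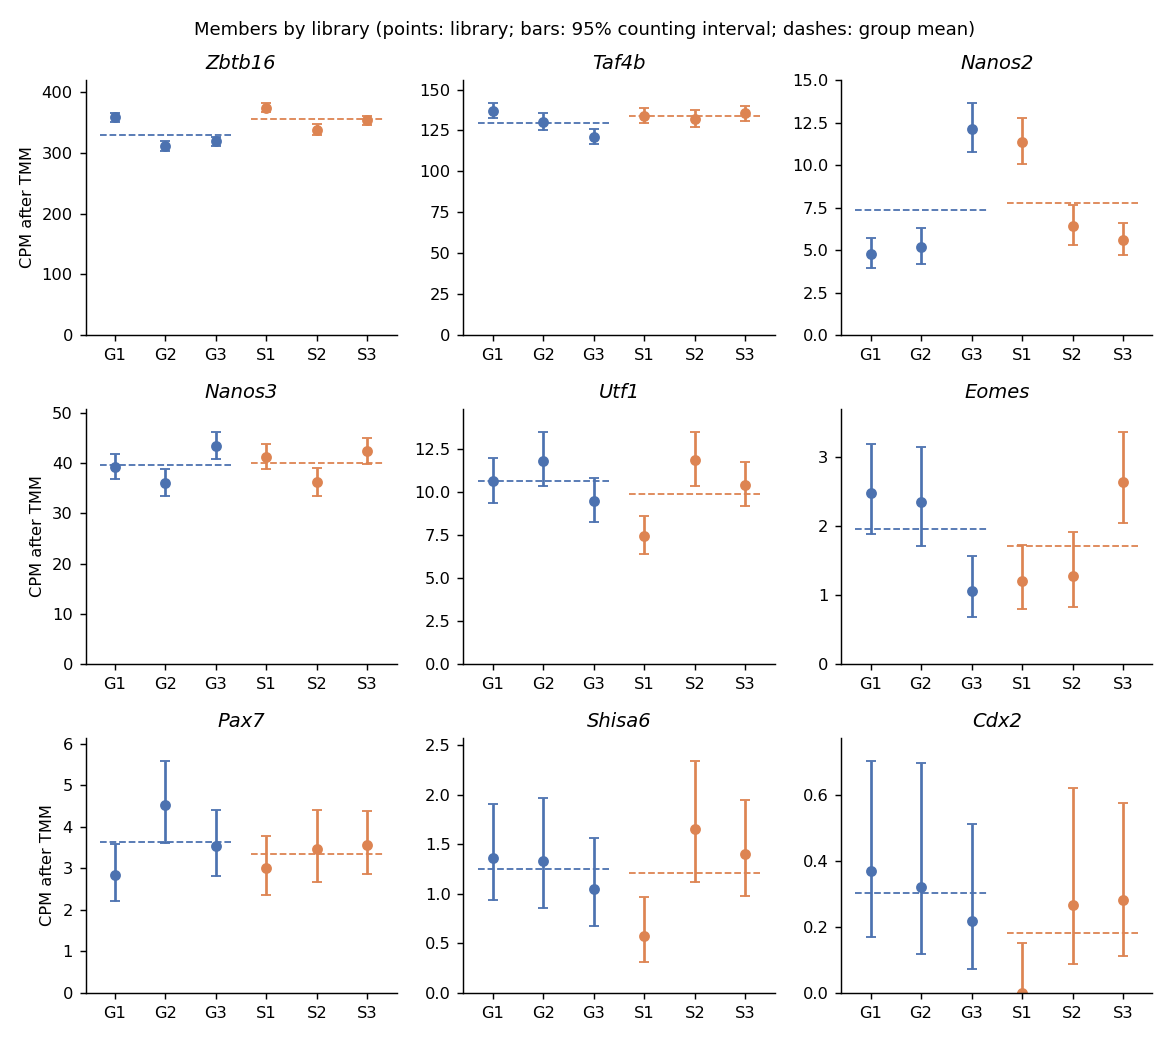
CPM after TMM scaling of each gene in the 6 libraries, with Ground-1 to Ground-3 as G1 to G3 and Space-1 to Space-3 as S1 to S3, and a panel with its own axis for each gene; bars are 95% counting intervals and dashes group means. Nanos2 is highest in Ground-3 (12.1 CPM) and Space-1 (11.4 CPM), where Eomes is at its lowest (1.05 and 1.19 CPM).

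Eomes was lowest in the libraries in which Nanos2 was highest. EOMES is a T-box transcription factor, and the gene (ENSMUSG00000032446) lies at chr9:118478212-118486132 on the plus strand of GRCm38. It was at 2.47, 2.34 and 1.05 CPM in Ground, from 60, 44 and 24 counts, and at 1.19, 1.28 and 2.64 CPM in Space, from 29, 24 and 66 counts. Ground-1, Ground-2 and Space-3 were high and Ground-3, Space-1 and Space-2 were low, so both groups held high and low libraries. The means were 1.95 ± 0.784 CPM in Ground and 1.70 ± 0.811 CPM in Space (SD, n = 3 each). The log2 fold change was −0.18 (SE 0.43, 95% interval 0.438-fold to 1.77-fold, edgeR adjusted p = 0.9999). Eomes shared 118 exon bases with the antisense gene Gm33460, which received 20 counts in all.

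The count ratio of Nanos2 to Eomes within a library does not depend on the scaling of libraries. It was 1.93, 2.20 and 11.5 in Ground-1, Ground-2 and Ground-3, and 9.52, 5 and 2.12 in Space-1, Space-2 and Space-3. The 95% counting intervals were 7.63 to 17.5 in Ground-3 and 6.51 to 13.9 in Space-1, above those of Ground-1 (1.42 to 2.64), Ground-2 (1.55 to 3.14) and Space-3 (1.58 to 2.84). Space-2 lay between, at 3.24 to 7.72. These intervals cover counting error only, and this pair of genes was chosen after its values were seen, so the ratio was not tested. Of the counts of both genes together, Nanos2 made up between 65.9% and 92.0% in Ground and between 68.0% and 90.5% in Space.

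**Figure D3:**
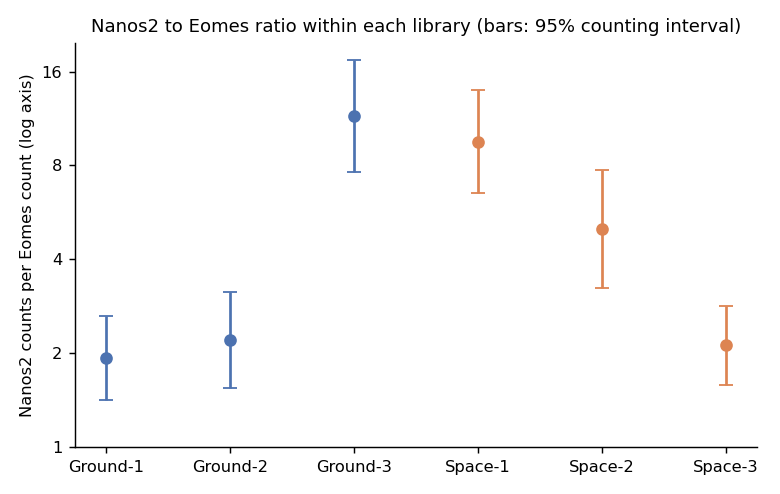
Count ratio of Nanos2 to Eomes in each of the 6 libraries with 95% counting intervals, coloured by group. Ground-3 (11.5) and Space-1 (9.52) lie above Ground-1 (1.93), Ground-2 (2.20) and Space-3 (2.12).

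Over the 6 libraries Nanos2 ran opposite to Eomes (Pearson's r of log2 CPM −0.876), and also to Utf1 (−0.767), Shisa6 (−0.745) and Taf4b (−0.617), given as a description. The sequence just upstream of Nanos2 and Eomes is shown because Eomes had the most negative r to Nanos2 among the members. The windows come from the RefSeq promoter table on GRCm38.p6, kept to the bases upstream of every annotated start, on the plus strand and written 5′ to 3′. They are chr7:18987274-18987399 for Nanos2 (126 bases) and chr9:118477939-118478188 for Eomes (250 bases). Capitals mark matches to the letters CCAAT in either orientation.
Nanos2: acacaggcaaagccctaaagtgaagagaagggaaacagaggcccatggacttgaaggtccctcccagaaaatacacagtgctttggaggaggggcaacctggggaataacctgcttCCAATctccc
Eomes: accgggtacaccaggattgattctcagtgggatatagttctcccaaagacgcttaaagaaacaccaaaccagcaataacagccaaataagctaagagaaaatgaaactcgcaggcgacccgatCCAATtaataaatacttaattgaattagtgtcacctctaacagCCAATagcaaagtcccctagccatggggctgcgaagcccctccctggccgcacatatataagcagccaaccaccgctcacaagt
CCAAT occurred 1 time in the Nanos2 window and 2 times in the Eomes window. Of 32851 promoters in the table, 22.0% held it in a window of the length used for Nanos2 and 33.8% in a window of the length used for Eomes. Those windows ended just before each RefSeq start. The Nanos2 window ended further upstream, before its GENCODE start and not next to its RefSeq start at 18987524, so its position differed from theirs. Neither window held, on either strand, the TATA box letters TATAAA, the GC box letters GGGCGG, the ETS core CCGGAA, the T-box site letters GGTGTGA or the retinoic acid receptor site letters AGGTCA. Only these exact letters were searched. Variants of a site, such as tatataag near the end of the Eomes window, were not counted, so a site is not shown to be absent.

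The T-box relatives of Eomes, and several other genes of undifferentiated spermatogonia, were also uneven. T (brachyury), which is expressed in undifferentiated spermatogonia, was at 13.1, 8.52 and 4.52 CPM in Ground and at 3.95, 7.30 and 10.3 CPM in Space. Its highest values were in Ground-1 and Space-3 and its lowest in Ground-3 and Space-1, and its log2 fold change was −0.28 (SE 0.44, edgeR adjusted p = 0.9999). Tbr1, a T-box gene best known from the cortex, was at 1.19, 1.12 and 0.482 CPM in Ground and at 0.453, 0.480 and 0.920 CPM in Space, with a log2 fold change of −0.57 (SE 0.46). Gfra1, the GDNF receptor gene, was at 142, 149 and 100.4 CPM in Ground and at 101, 141 and 148 CPM in Space, lowest again in Ground-3 and Space-1. The groups overlapped for each of these 3 genes. The same libraries were lowest in some other genes of the undifferentiated list, which were chosen here after their values were seen. Bcl6b, a GDNF-responsive transcription factor gene, was at 364, 222 and 59.1 CPM in Ground and at 57.6, 218 and 371 CPM in Space. Etv5, another GDNF-responsive gene, was at 259, 202 and 93.0 CPM in Ground and at 99.1, 195 and 262 CPM in Space. Their log2 fold changes were 0.0030 (SE 0.73) and 0.0050 (SE 0.42). In Egr2 (23.2 to 81.9 CPM), Lhx1 (31.5 to 69.4 CPM) and Foxc2 (9.27 to 24.3 CPM) Ground-3 and Space-1 were again the lowest libraries. Other genes of the list went the other way, with Ground-3 and Space-1 the highest libraries. Among them were Sox3 (66.5 to 98.7 CPM), Tcl1 (32.4 to 55.3 CPM), Foxo1 (204 to 260 CPM) and Sall4 (167 to 189 CPM).

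The abundant transcription regulators differed little between libraries. Zbtb16 (ENSMUSG00000066687, chr9:48654297-48836222, minus strand) encodes a zinc finger repressor with a BTB domain. It was at 359, 312 and 319 CPM in Ground-1, Ground-2 and Ground-3 and at 375, 339 and 354 CPM in Space-1, Space-2 and Space-3. Ground-1 exceeded Space-2 and Space-3, so the groups overlapped. The means were 330.1 ± 25.5 CPM in Ground and 356 ± 18.1 CPM in Space (SD, n = 3 each). Its log2 fold change of 0.11 (SE 0.072) had the smallest p of the 8 tested genes before adjustment, 0.169, and an edgeR adjusted p of 0.9999. The 95% interval ran from 0.961-fold to 1.21-fold.

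Taf4b (ENSMUSG00000054321, chr18:14783245-14900359, plus strand) encodes the germ cell form of TAF4 and had the narrowest range of the 8 genes past the filter. It was at 137, 130.2 and 121 CPM in Ground and at 134, 132 and 136 CPM in Space, with overlapping groups. The means were 129 ± 8.05 and 134 ± 1.75 CPM, and the log2 fold change was 0.049 (SE 0.061, 95% interval 0.938-fold to 1.14-fold, edgeR adjusted p = 0.9999). Taf4, the broadly expressed paralog, was measured at 57.6, 49.3 and 63.2 CPM in Ground and at 63.7, 53.6 and 56.3 CPM in Space. There were 2.62, 2.39 and 2.64 Zbtb16 counts per Taf4b count in Ground and 2.80, 2.57 and 2.61 in Space, so this ratio varied little beside that of Nanos2 to Eomes.

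Utf1 (ENSMUSG00000047751, chr7:139943789-139945112, plus strand) encodes a chromatin-associated factor of pluripotent cells that is also present in early spermatogonia. It was at 10.6, 11.8 and 9.47 CPM in Ground and at 7.45, 11.8 and 10.4 CPM in Space, from 181 to 260 counts. Space-1 was lowest and the other 5 libraries lay between 9.47 and 11.8 CPM. The means were 10.6 ± 1.18 CPM and 9.89 ± 2.23 CPM, with a log2 fold change of −0.11 (SE 0.19, 95% interval 0.684-fold to 1.26-fold, edgeR adjusted p = 0.9999). The embryonic stem cell markers, of which 2 of 5 passed the filter and none was called, summed to 35.8 to 52.6 CPM in Ground and to 34.4 to 50.7 CPM in Space. Zfp42, at 22.8 to 25.6 CPM, and Sox2 made up most of the sum, while Nanog had between 0 and 8 counts in a library. Sox2 was at 10.8, 14.2 and 28.9 CPM in Ground and at 26.1, 11.2 and 14.0 CPM in Space, so Ground-3 and Space-1 were high.

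Pax7 and Shisa6 were low, and both overlapped between the groups. PAX7 is a paired-box transcription factor that also marks the satellite cells of muscle, and the gene (ENSMUSG00000028736) lies at chr4:139737062-139833528 on the minus strand. It was at 2.84, 4.53 and 3.55 CPM in Ground and at 3.01, 3.46 and 3.56 CPM in Space, from 65 to 89 counts. Both the lowest and the highest value were in Ground libraries. Space relative to Ground, its log2 fold change was −0.12 (SE 0.23, 95% interval 0.641-fold to 1.33-fold, edgeR adjusted p = 0.9999). Of the 6 myogenic markers 3 passed the filter, and their sum was 17.6 to 26.1 CPM in Ground and 17.4 to 25.9 CPM in Space. Most of it was Cdh15, at 13.2 to 20.7 CPM, while Myf5, which like Pax7 marks satellite cells, had 0 counts in all 6 libraries.

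Shisa6 (ENSMUSG00000053930, chr11:66211725-66525964, minus strand) encodes a membrane protein that inhibits Wnt signalling within the cell that makes it. It was at 1.36, 1.33 and 1.05 CPM in Ground, from 33, 25 and 24 counts, and at 0.577, 1.65 and 1.40 CPM in Space, from 14, 31 and 35 counts. Space-1 was lowest and Space-2 highest, so the Space libraries spanned the whole range of Ground. Its log2 fold change was −0.057 (SE 0.40, 95% interval 0.505-fold to 1.83-fold, edgeR adjusted p = 0.9999). All 9 genes of the Wnt list passed the filter, 4 with a log2 fold change above 0 and 5 below, and none was called. Ctnnb1, the gene of beta-catenin, was at 607 ± 27.0 CPM in Ground and 603 ± 31.0 CPM in Space, and Tcf7 was at 279 ± 15.7 and 277 ± 13.4 CPM. Ground-3 and Space-1 were the highest libraries in Sp5 (19.5 to 45.9 CPM) and the lowest in Tcf7, Lef1, Nkd1 and Rnf43. The largest log2 fold changes of the list were 0.19 (SE 0.53) for Rnf43 and 0.12 (SE 0.17) for Tcf7l2.

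Cdx2 (ENSMUSG00000029646, chr5:147300805-147307270, minus strand), a caudal homeobox gene best known from the trophectoderm and the intestine, was at the limit of detection. It had 9, 6 and 5 counts in Ground-1, Ground-2 and Ground-3 and 0, 5 and 7 counts in Space-1, Space-2 and Space-3. It did not pass the filter and was not tested. The count of 0 in Space-1 has a floor of 0.124 CPM, the value of 3 counts in that library, and the 2-sided 95% counting interval ends at 0.152 CPM. Pooled over libraries there were 20 counts in Ground and 12 in Space, a ratio per scaled library size of 0.581 with a counting interval of 0.259 to 1.25 that covers counting error only. Cdx4, a paralog, had 0 counts in all 6 libraries.

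Across the 9 genes, 8 passed the filter and none was called. By edgeR, 0 of 15104 genes had an adjusted p under 0.05, which is 0% of the genes tested, and 92 genes or 0.609% had an unadjusted p under 0.05. None of the 8 genes was among those 92. This share is smaller than the p threshold of 0.05 would give if p were evenly spread. The test thus called little here, and not passing it does not show equal levels. Spread common to the most similar libraries of both groups stayed in the error of the test. Its effect on the share was not tested. The groups overlapped in all 9 genes, whereas among all tested genes the Space libraries lay entirely below the Ground libraries in 1.98% and entirely above them in 1.61%. The log2 fold change was above 0 in 4 of the 8 and below 0 in 4, with a median of −0.022, beside −0.0020 over all tested genes, of which 51.3% were below 0. The precision differed more than the values did, with an SE of 0.061 for Taf4b and 0.43 for Eomes.

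**Figure D4:**
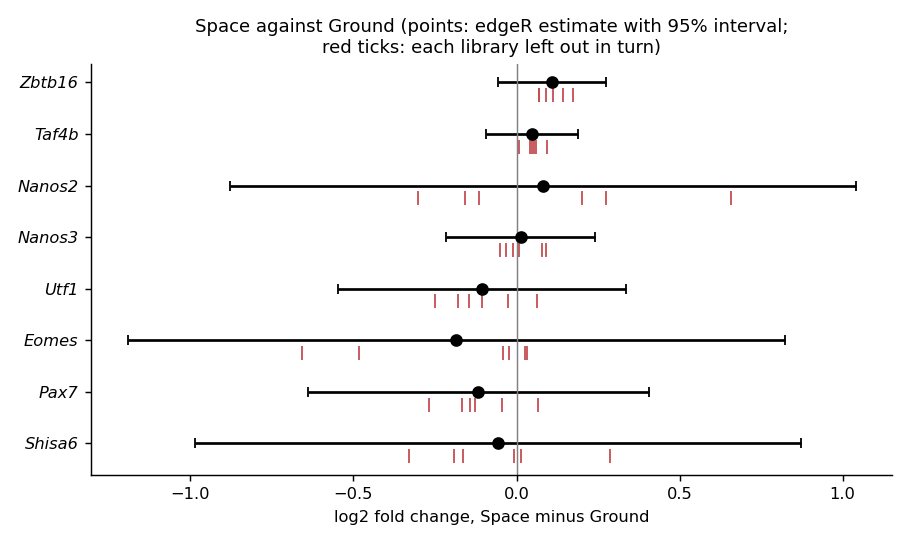
Log2 fold change, Space relative to Ground, of the 8 genes past the filter with 95% intervals from the edgeR fit. All intervals include 0, and they are narrow for Taf4b, Zbtb16 and Nanos3 and wide for Nanos2, Eomes and Shisa6.

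The genes differed in how far they varied between libraries. The range of log2 CPM over the 6 libraries was 0.18 for Taf4b, 0.27 for Zbtb16 and 0.27 for Nanos3, beside a median of 0.39 over all tested genes. It was 0.66 for Utf1 and 0.66 for Pax7, and 1.26 for Eomes, 1.33 for Nanos2 and 1.39 for Shisa6. Of all tested genes, 89.5%, 90.9% and 91.8% had a smaller range than Eomes, Nanos2 and Shisa6. Counting error is larger at low counts, and Shisa6 had only 14 to 35 counts in a library, while Nanos2 had 97 to 277. The fold between the highest and the lowest library was 2.54 for Nanos2, 2.51 for Eomes and 2.87 for Shisa6.

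The genes whose levels followed these 3 members most closely over the 6 libraries were looked up by Pearson's r of log2 CPM, as a description. For Nanos2 they were Hnrnpa2b1, Irf2bp2, Fut10, Msl1 and Csad (r between 0.994 and 0.996), and 1137 of 15103 genes had an r over 0.9. Hnrnpa2b1, an RNA-binding protein gene, was at 892, 913 and 1122 CPM in Ground and at 1113, 956 and 909 CPM in Space. For Eomes they were Chil1, Trp63, Fam160b1, Tmem104 and Adtrp (r between 0.991 and 0.998). Trp63, the gene of a p53 relative, was at 1.98, 1.60 and 0.438 CPM in Ground and at 0.494, 0.639 and 1.88 CPM in Space. For Shisa6 they were Ntf5, Slc22a15, Sap25, Nudt2 and Cbfb (r between 0.990 and 0.993). Over 6 libraries many genes reach such an r, and these lists changed when 1 library was left out: between 0 and 3 of the 5 genes stayed for Shisa6, between 0 and 1 for Nanos2 and between 0 and 2 for Eomes.

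None of the other genes of the undifferentiated state or of differentiation passed the test. Of 22 listed genes 20 passed the filter, 10 with a log2 fold change above 0 and 10 below, with a median of 0.00056, and none was called. The most abundant were Ccnd2, a cyclin, at 568 ± 150.4 CPM in Ground and 576 ± 159 CPM in Space, and Mcam, an adhesion molecule, at 528 ± 124 and 519 ± 135 CPM. Neurog3, which marks undifferentiated spermatogonia on the way to differentiation, was at 2.15 ± 0.591 and 2.56 ± 0.598 CPM, with a log2 fold change of 0.24 (SE 0.29). All 12 genes of the differentiation list passed the filter, 5 above 0 and 7 below, with a median of −0.0032 and none called. Dmrt1, a regulator of the mitosis to meiosis decision, was at 469 ± 112 and 467 ± 116 CPM, and Sohlh2, a differentiation factor, at 272 ± 40.0 and 278 ± 50.1 CPM. By library, Dmrt1 was at 358, 467 and 582 CPM in Ground and at 589, 452 and 360 CPM in Space. Ground-3 and Space-1 were thus its highest libraries, as in Sohlh2, Rarg and Rec8, and they were the lowest in Kit, Stra8 and Ccnb3. The contrast of these libraries was therefore not limited to the undifferentiated genes, and also appeared in the differentiation list. The largest log2 fold changes there were 0.15 (SE 0.17) for Dmrtb1 and −0.13 (SE 0.10) for Sycp3, a gene of the synaptonemal complex.

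No partner of the members passed the test. All 16 genes of NANOS partners and the CCR4-NOT complex passed the filter, 11 above 0 and 5 below with a median of 0.017, and none was called. Cnot1, the scaffold of the deadenylase, was at 600.4 ± 40.5 CPM in Ground and 607 ± 52.6 CPM in Space, and Cnot3 at 264 ± 7.24 and 267 ± 8.13 CPM. The RNA-binding partner Pum2 had a log2 fold change of 0.060 (SE 0.081). Of 14 TFIID subunits 13 passed, 7 above 0 and 6 below with a median of 0.0074. Taf1, the largest subunit, was at 380 ± 18.9 and 379 ± 18.9 CPM, Taf7 was at 226 ± 11.1 and 224 ± 19.4 CPM, and the largest log2 fold changes were 0.088 (SE 0.058) for Taf5 and 0.070 (SE 0.12) for Taf13. In Taf5 the Space libraries (103 to 110 CPM) lay above the Ground libraries (94.9 to 101 CPM), without passing the test.

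All 12 genes of ZBTB16 corepressors and partners passed the filter, 7 above 0 and 5 below with a median of 0.010. Sin3a, a corepressor scaffold, was at 431 ± 16.6 CPM in Ground and 452 ± 35.0 CPM in Space. Sall1 was at 74.7, 83.1 and 166 CPM in Ground and at 178, 87.2 and 73.7 CPM in Space, highest in Ground-3 and Space-1. These libraries were also highest in Ddit4, and by a small margin lowest in Sin3b. Bmi1, a Polycomb gene, was at 66.9, 66.8 and 65.5 CPM in Ground and at 69.6, 70.6 and 69.0 CPM in Space, with no overlap between groups. Its edgeR adjusted p was 0.9999 and its log2 fold change 0.070 (SE 0.054). Of 12 paralogs of members 6 passed the filter, 3 above 0 and 3 below with a median of −0.013, and Zbtb32 was at 36.1 ± 4.88 and 36.2 ± 3.10 CPM.

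Markers of other cells were read beside these genes. In the fibroblast list 17 of 18 genes had a log2 fold change below 0, with a median of −0.28. None was called after adjustment, and 3 had an unadjusted p under 0.05, which were Col1a2, Col3a1 and Vim. In Col1a2 the Space libraries (13.3 to 26.0 CPM) lay below the Ground libraries (29.7 to 33.8 CPM). The abundant Fn1 and Col5a1 had log2 fold changes of −0.093 (SE 0.084) and 0.020 (SE 0.12), and Vim and Postn had −0.70 (SE 0.29) and −0.67 (SE 0.55). Space-1, with the lowest sum of these markers, also had the lowest Utf1, Shisa6 and Cdx2, and their part in those values was not tested. Of 8 Sertoli cell markers 5 passed the filter, with sums of 25.5 to 29.6 CPM in Ground and 26.8 to 28.5 CPM in Space. Wt1, at 16.1 to 19.7 CPM, and Sox9, at 4.41 to 9.60 CPM, made up most of it, and Fshr was at 0 counts. Leydig cell markers, of which 1 of 5 passed, summed to 4.45 to 5.04 CPM and 4.16 to 4.56 CPM with Hsd3b1 at 0 counts. Star, which made up most of that sum, was at 4.32, 4.63 and 5.04 CPM in Ground and at 3.95, 4.26 and 4.32 CPM in Space, where the groups did not overlap by a narrow margin. Macrophage markers, of which 2 of 5 passed, summed to 14.1 to 22.6 CPM and 17.3 to 21.9 CPM. Nearly all of it was Cd68, at 14.0 to 22.0 CPM, while Adgre1, Csf1r and Lyz2 each had 0 to 2 counts in a library. No gene of these lists was called, and the 3 endothelial markers summed to 10.9 to 20.7 CPM and 10.5 to 19.0 CPM.

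**Figure D5:**
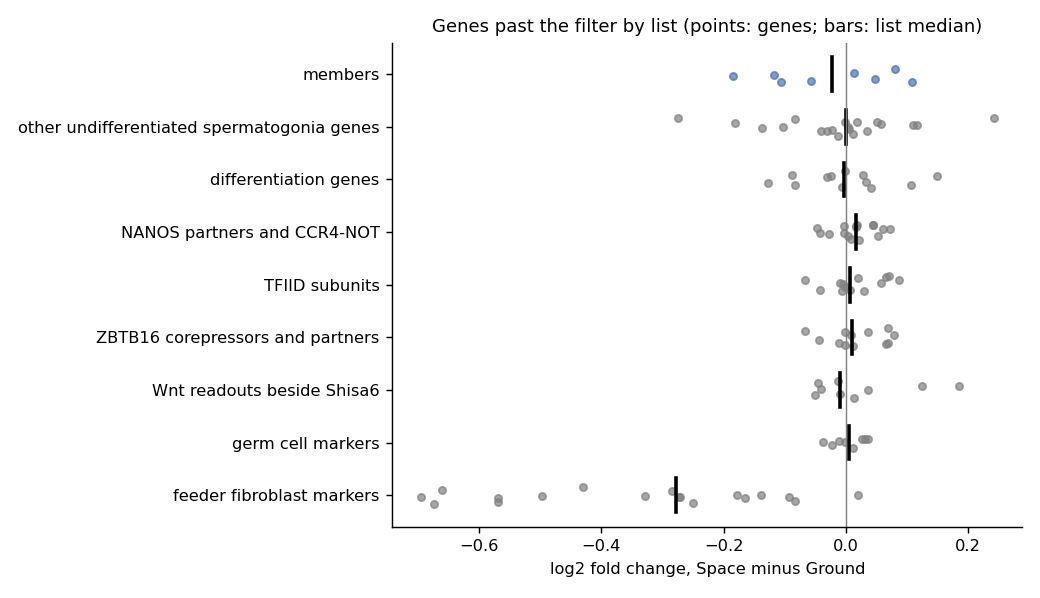
Log2 fold change, Space relative to Ground, of each gene past the filter in 9 of the lists described, with 1 point per gene and the list median as a bar. The medians lie near 0 for the members (−0.022) and for the undifferentiated genes (0.00056), and at −0.28 for the fibroblast markers.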

How the data were processed

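Poly(A) RNA of 6 libraries of GS cells was sequenced, 3 titled Space and 3 titled Ground. The authors deposited raw counts per gene in 1 table with a column per library. Per the labels, reads were processed with bcl2fastq 2.20, cutadapt 4.1, HISAT2 2.2.1 and HTSeq 2.0.2 on mm10, and the methods name GENCODE M21. Labels and methods disagree on the library kit, the sequencer, single or paired reads and the cutadapt version. Whether HTSeq used strand, and how it treated reads that fit several genes, is not given in the sources used here.

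The tests used edgeR 4.0.16 under R 4.3.3. The filterByExpr filter left 15104 genes, libraries were scaled by TMM, and the 2-sided quasi-likelihood F test compared Space with Ground without a replicate block. P-values were adjusted over all tested genes by the Benjamini-Hochberg method, with a threshold of 0.05. The SE is the size of a log2 fold change divided by the square root of F. The procedure was tested on simulated data of independent libraries that varied less than these, so that run does not show what the test would miss here. CPM used TMM-scaled library sizes, log2 CPM a prior count of 2, and levels per kb the union of exons in GENCODE M21. Counting intervals are at 95%. A depth of 19015985 to 24110916 counts puts 3 counts at 0.120 to 0.160 CPM.

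The study describes 3 cell lines, but no label says which libraries share a line. P-values therefore measure the spread between these libraries, which may be partly technical. Every library was most similar to a library of the other group, and no block for such pairs was fitted. Spread common to a pair of this kind stayed in the error of the test, and its part in the SE was not tested. The members and the lists were chosen with earlier results of these data known. Named beside the members were, from each of 15 lists, the 2 genes with the highest mean CPM and the 2 with the largest absolute log2 fold change past the filter, the 5 genes most like each of the 3 members with the widest range, and marker genes at 0 counts. Some of the genes so selected are not reported here. Gene ratios and some others (Gfra1, Nanos1, Nanog, Bcl6b, Etv5, Egr2, Lhx1, Foxc2, Sox3, Tcl1, Foxo1, Sall4, Col1a2, Col3a1) were named for their role or after their values were seen. So were Rarg, Rec8, Kit, Stra8, Ccnb3, Sall1, Ddit4, Sin3b, Sp5, Lef1, Nkd1, Adgre1, Csf1r and Lyz2. Alternatives were RLE scaling, total counts, no filter, a filter of at least 10 counts in 3 libraries, DESeq2 1.42.0, limma-voom in limma 3.58.1, a replicate block, and leaving out each library.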

Additional observations from a re-analysis of the deposited data

How the results depend on the processing

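In all 13 alternatives 0 genes and 0 of the 9 members passed the adjusted threshold. The number of genes with an unadjusted p under 0.05 was 92 by edgeR, 192 with no filter, 45 by DESeq2 and 64 to 161 when 1 library was left out. None of the members was among them, except Zbtb16 without Ground-1. Of 104 values of member log2 fold changes 12 had the opposite sign, all when 1 library was left out, and none of these members was called. Leaving out 1 library gave −0.30 to 0.66 for Nanos2, which was 0.66 without Ground-3 and −0.30 without Space-1. It gave −0.66 to 0.031 for Eomes, which was −0.66 without Space-3 and 0.031 without Ground-1. The ranges were −0.33 to 0.29 for Shisa6, −0.27 to 0.065 for Pax7, −0.25 to 0.063 for Utf1 and −0.049 to 0.090 for Nanos3. Zbtb16 stayed between 0.070 and 0.17 and Taf4b between 0.0076 and 0.092. The median over the members ran from −0.089 to 0.037. Total counts moved the median of all genes to 0.033. With the longest transcript as length, Nanos3 was at 54.5 CPM per kb and the order of levels did not change.

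Both groups carry replicate numbers 1 to 3. Deviations from the group means of same-numbered libraries correlated at −0.535, 0.332 and −0.606, and 2 of 6 libraries correlated best with their own number, so the numbers were not taken as a pairing. With the replicate block 0 genes were called and 63 had an unadjusted p under 0.05. The log2 fold change under the block was 0.15 for Nanos2, −0.21 for Eomes, −0.14 for Shisa6 and 0.11 for Zbtb16. Depth limits Cdx2, with 0 to 9 counts in a library, and the parts of counting error and of library spread in the SE of the other members were not separated.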
